A study of Sus scrofa with 24 samples.

Results

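Spleen circRNAs of 3 Meishan pigs at 180 days after birth (180d) were compared with those of 3 other Meishan pigs at 35 days after birth (35d), over all 3000 circRNAs of the deposited count table. The table holds 24 libraries from 8 stages, 1 library per pig, and the 6 libraries of 35d and 180d are those compared here. All pigs were healthy, of one breed and on one diet, no treatment was given to either stage, and each pig was sampled at a single age, so the comparison is between animals and not within them. Sex and litter of the pigs are not given in the sources used here.

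A circRNA is made when the end of an exon is spliced back onto the start of the same or an earlier exon of its transcript, which closes the RNA into a ring without a cap or a tail. Most circRNAs are built from exons of protein-coding genes, called host genes, and rings outlast linear RNA because exonucleases find no end to start from. The spleen filters blood, clears old red cells in its red pulp and mounts lymphocyte responses in its white pulp, and in young mammals it can also house dividing blood cell precursors. Reads across the back-splice junction count the ring alone, so the level of the linear mRNA of a host gene was not measured by these counts.

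In all, 8 circRNAs passed both thresholds, an adjusted p under 0.05 and a change of at least 2-fold. The sequences across their back-splice junctions are shown because each junction is the stretch that tells the ring from the linear RNA. Lower case letters are the last 15 bases of the ring before the junction and capitals its first 15 bases after it, 5′ to 3′ on the transcribed strand, read from the RefSeq Sscrofa11.1 genome. In the 6 named by a host gene these bases belong to the closing and the opening exon.
circRNA_13457: aaaatcaagtaagagACCACATGAGACAAG
circRNA_26651: ccctaggactaggagAGCATCACTTGAGAC
DTL circRNA_38617: ctaagtttgagaaagGATGGTCTTCACAAT
IGF2BP3 circRNA_37799: tacccacagtttgagAGCTTTAGACAAACT
EZH2 circRNA_38087: cagcagaatttcatgAATAATCATGGGCCA
KCTD3 circRNA_04508: cgaatcaaattctagATATTTATTGATAGA
BTBD7 circRNA_34381: acatgcttgcacaagAAATGGATGAAAAGA
ZRANB1 circRNA_14994: ttaatgcttgtgtggCTTCCTGCCTGACAT
None of these 8 junctions had a copy of the 30 bases beside it within 500 kb, in the searches made on either side, from which ordinary splicing could give the same read.

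The 35d libraries held 35599, 56086 and 54554 back-splice reads and the 180d libraries 37023, 57890 and 55129. Reads of the table per M clean reads were 461 ± 99 (SD, n = 3) at 35d and 469 ± 94.5 at 180d (exact permutation test, two-sided, p = 0.6, where the smallest p that 3 against 3 allows is 0.1). A library detected 2887 ± 74.9 circRNAs at 35d and 2808 ± 82.3 at 180d (exact permutation test, p = 0.3). Replicate 1 had the fewest reads at both stages, and the share of valid bases of its library was at least 0.96 at both stages and under 0.96 in replicates 2 and 3. Levels are given as TMM-scaled counts, which are counts corrected for the effective library size, and the spread between pigs of a stage amounted to a biological coefficient of variation of 0.3. The median log2 fold change (180d minus 35d) of all circRNAs was -0.02. By annotation 2848 of the 3000 circRNAs opened and closed at exon ends of 1 gene, and they came from 1675 host genes.

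Between 35d and 180d 2 circRNAs rose and 6 fell, 0.267% of the 3000 tested (0.0667% higher and 0.2% lower). Both that rose lacked a matching host gene, whereas the 6 that fell were exonic circRNAs of IGF2BP3, EZH2, DTL, ZRANB1, BTBD7 and KCTD3. Without a threshold on p, the 3 libraries of 180d lay above all 3 of 35d for 256 circRNAs (8.53%) and below all 3 for 299 (9.97%). At an unadjusted p under 0.05, 107 circRNAs (3.57%) were higher and 162 (5.4%) lower at 180d. With DESeq2 size factors in place of TMM the split was 5 higher and 6 lower, and with the DESeq2 test 6 higher and 5 lower. The DESeq2 test, which gave 790 circRNAs an adjusted p, shared 5 of the 8 calls. A fit on the 6 libraries alone, without the spread of the other stages, shared 3. Lost in that fit were the falls of EZH2, KCTD3, BTBD7, ZRANB1 and DTL. Within the libraries of under 0.96 valid bases (replicates 2 and 3 of both stages) edgeR called 0 circRNAs, with 285 at an unadjusted p under 0.05, and in the single pair of at least 0.96 (replicate 1 of both stages, spread taken from the other stages) 0, with 169. In neither subset did a called circRNA change direction, and circRNA_13457 differed by 1.82 in the former and 2.16 in the latter on the log2 scale. On simulated counts for this comparison over 3000 circRNAs, the test found 8.06%, 54.2% and 78.8% of circRNAs changed by log2 1, 2 and 3, so most changes near 2-fold were not detectable at this depth.

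**Figure D1:**
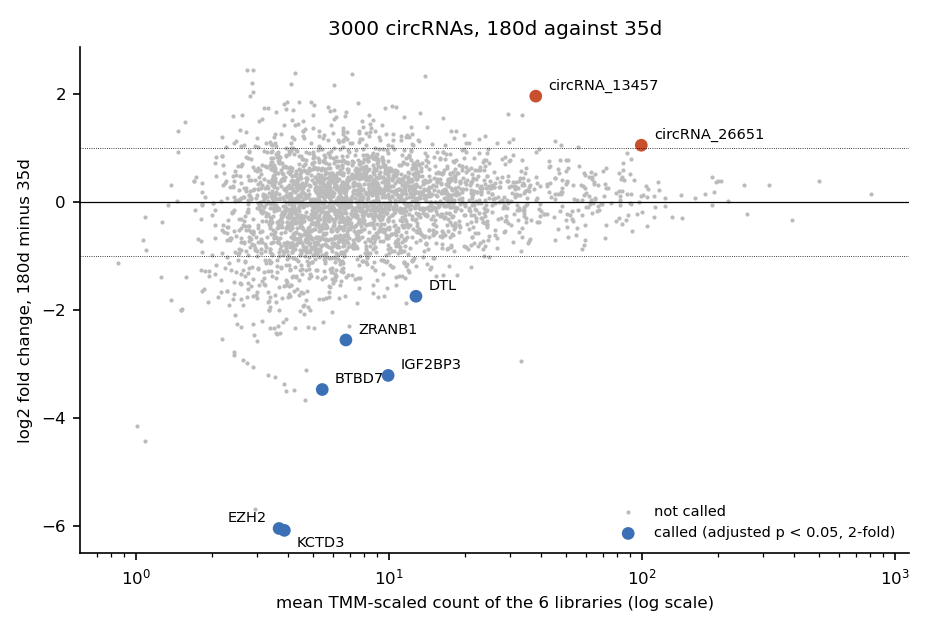
Log2 fold change (180d minus 35d, vertical axis) against the mean TMM-scaled count of the 6 libraries (horizontal axis, log scale) for 3000 circRNAs. Red points are the 2 circRNAs called higher and blue points the 6 called lower, and the dotted lines mark a 2-fold change. EZH2 and KCTD3 were listed at 0 in all 180d libraries, so the depth of their points depends on the prior count of the fit.

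The largest called rise was that of circRNA_13457 (Sscrofa11.1, chr14:54538637-54541433, minus strand). It lies within LOC102162338, a long non-coding RNA gene (chr14:54538200-54541569), and both its ends fall inside annotated exons of that gene and not at their borders. It was counted at 15.2, 16.3 and 14.9 in the 35d libraries and at 70.4, 53.9 and 57.7 in the 180d libraries. Every 180d library therefore exceeded every 35d library by a wide margin. The log2 fold change was 1.96 (SE 0.33, adjusted p = 0.000584). The call held when any 1 library was left out (adjusted p from 0.00108 to 0.017). Stage means stayed between 11.4 and 16.4 from 1d to 35d, then reached 26.6 at 120d and 60.7 at 180d.

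The other rise was that of circRNA_26651 (chr4:89111117-89111486, plus strand), which lies in an intron of CFAP126, which encodes a protein of cilia. The nearest annotated exons of the gene end at 89108396 before it and start at 89125153 after it, so no annotated exon contributes to the ring. Its levels were 59.6, 69.5 and 64.6 at 35d and 147, 135 and 121 at 180d. No overlap was seen between the groups, and the log2 fold change was 1.05 (SE 0.22, adjusted p = 0.0138), just past the 2-fold threshold. The call ended when replicate 1 or 2 of either stage was left out, with log2 fold changes from 0.98 to 1.12 and adjusted p up to 0.0933 over all 6 omissions. The 120d mean of 93.8 lay between the means of 64.6 at 35d and 134 at 180d.

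Among the falls, IGF2BP3 encodes an RNA-binding protein best known from fetal tissues and tumours. Its circRNA_37799 (chr9:92135892-92147867, minus strand, exons 6 to 10 of 15, 802 nt) was at 16.2, 24.1 and 14.1 at 35d. In the 180d libraries it was at 0, 3.59 and 1.5. The ranges did not touch (log2 fold change -3.21, SE 0.57, adjusted p = 0.000803), and the call held without any 1 library (adjusted p from 0.00108 to 0.0342). Its mean over the 6 libraries was 9.93, under the minimum of 10 set for naming, so it and the 4 circRNAs described next were named after their values were seen.

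EZH2 encodes the catalytic subunit of the Polycomb complex that methylates histone H3 at lysine 27. Its circRNA_38087 (chr9:109411982-109425231, plus strand, exons 2 to 4 of 20, 343 nt) was at 5.41, 8.51 and 8.17 at 35d and was listed at 0 in all 3 libraries of 180d. Counts of 1 are listed as 0 in this table. An expected total of up to 7 reads is thus allowed by 3 libraries at 0 (95% limit rounded up, for counting error only). That limit is 1.91 as a TMM-scaled count, and the 35d mean of 7.37 was 3.86-fold above it (adjusted p = 0.0181). The ratio takes the 35d mean as exact and leaves out the spread between pigs, so it is no lower bound. Leaving out 35d replicate 2 or any 180d library ended the call, with adjusted p up to 0.134.

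Listed at 0 in all 180d libraries was also circRNA_04508 of KCTD3 (chr10:5761746-5812467, plus strand, exons 4 to 17 of 18, 1706 nt), a gene of the BTB-domain KCTD family. It was at 8.66, 7.80 and 6.69 at 35d, and that mean, again taken as exact, was 4.04-fold above the same limit (adjusted p = 0.0181). The call ended without any 1 of the 6 libraries except 35d replicate 3 (adjusted p up to 0.134).

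BTBD7 encodes another BTB-domain protein, and its circRNA_34381 (chr7:114673750-114675741, minus strand, exons 2 and 3 of 11, 1268 nt) was at 10.8, 7.09 and 12.6 at 35d and at 0, 2.16 and 0 at 180d. Its log2 fold change was -3.47 (SE 0.79, adjusted p = 0.0196). The deubiquitinase gene ZRANB1 gave circRNA_14994 from exon 2 of 10 alone (chr14:134281823-134282673, plus strand, 851 nt). It was at 15.2, 11.4 and 8.92 at 35d and at 0, 2.16 and 3 at 180d (log2 fold change -2.55, SE 0.58, adjusted p = 0.0196). For both circRNAs every 180d library lay below every 35d library. The BTBD7 call ended when replicate 1 or 3 of either stage was left out (adjusted p up to 0.169), and the ZRANB1 call without any library except 35d replicate 3 (adjusted p up to 0.134).

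DTL, the substrate receptor of a ubiquitin ligase that degrades replication licensing factors in S phase, gave the sixth fall. Its circRNA_38617 (chr9:131264261-131268491, minus strand, exons 2 to 5 of 16, 408 nt) was at 20.6, 19.9 and 18.6 at 35d. At 180d it was at 7.47, 5.03 and 5.25, and neither group came near the other. The log2 fold change of -1.74 (SE 0.41, adjusted p = 0.0315) kept its direction in every fit without 1 library, from -1.91 to -1.64, but none of those 6 fits called it (adjusted p from 0.0586 to 0.229).

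**Figure D2:**
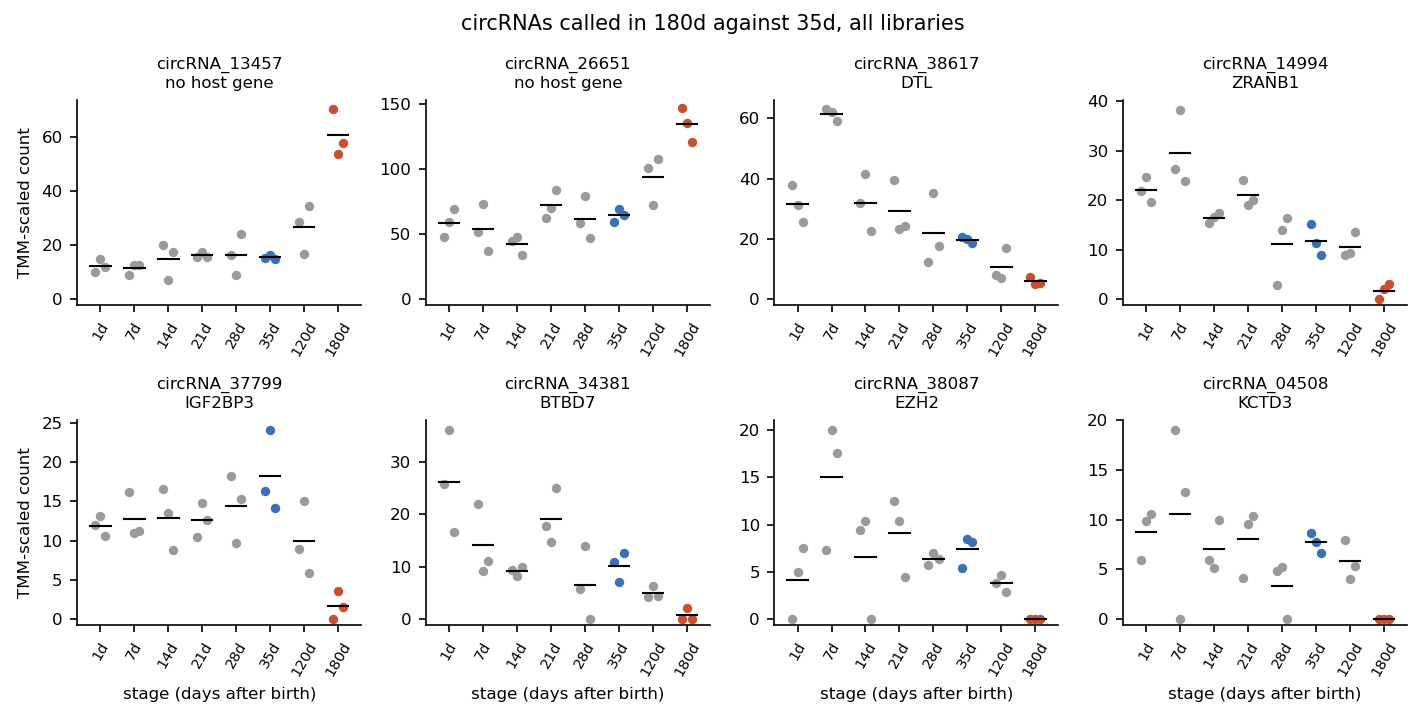
TMM-scaled counts (vertical axis, linear from 0) of the 8 circRNAs called between 35d (blue) and 180d (red) in all 24 libraries, by stage, with a bar at each stage mean (n = 3). The 120d mean lies between the 35d and 180d means in all 8 panels, and 180d holds the highest or the lowest stage mean of each.

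In all 8 called circRNAs the 120d mean, from libraries outside the comparison, lay between the 35d and 180d means, and 180d had the most extreme mean of the 8 stages. Of all 3000 circRNAs 1252 had a 120d mean between the 35d and 180d means, and 543 had their highest and 525 their lowest stage mean at 180d. The called circRNAs were chosen for their difference at 180d. The falls did not start from a common earlier level. The DTL mean was 61.4 at 7d and 31.6 at 1d, against 19.7 at 35d, 10.6 at 120d and 5.92 at 180d. In contrast, the IGF2BP3 mean was 11.9 at 1d and 18.2 at 35d before it was 9.95 at 120d and 1.70 at 180d. A comparison of 120d with 28d, which shares no library with 180d against 35d but is taken from the same fit, called 0 of 3000 circRNAs with edgeR, 200 (6.67%) at an unadjusted p under 0.05, and 5 with DESeq2. Side by side, 7 of the 8 called circRNAs had the same sign in both comparisons, KCTD3 being the exception at 0.68 in 120d against 28d, beside 55.9% of all 3000. For circRNA_13457 the log2 difference of 120d from 28d was 0.74, for circRNA_26651 0.60, for DTL -1.04 and for IGF2BP3 -0.53.

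Further circRNAs with a mean of at least 10 and the smallest p among those higher at 180d did not pass the threshold, although their groups did not overlap. That of TMEM56, which encodes a transmembrane protein, was closest. Its circRNA_27373 was at 8.66, 2.13 and 3.72 at 35d and at 20.3, 25.9 and 22.5 at 180d (log2 fold change 2.33, SE 0.57, adjusted p = 0.0514). Next came circRNA_31400 of SMCHD1, a chromatin protein of X inactivation (0.91, adjusted p = 0.0574). The circRNA of CTSS, circRNA_26897, was at 18.4, 30.5 and 35.7 at 35d and at 47.0, 82.7 and 57.0 at 180d (1.12, SE 0.30, adjusted p = 0.0836). CTSS encodes cathepsin S, the protease of antigen-presenting cells that trims the invariant chain of MHC class II. Another 4 came from DISC1 (1.17), from within PAWR (1.05), from the spliceosome gene MFAP1 (0.93) and from within TLK1 (0.80), each with an adjusted p of 0.136.

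On the falling side 9 circRNAs with a mean of at least 10 came next after DTL without passing. RBL1, which encodes the pocket protein p107 that restrains E2F factors, had circRNA_18987 at 22.7, 20.6 and 11.9 at 35d and at 5.34, 7.19 and 2.25 at 180d (log2 fold change -1.86, SE 0.47, adjusted p = 0.0565). The circRNA_08311 of ZNF207, a kinetochore protein gene, was at 27.1, 17.7 and 22.3 against 8.54, 10.1 and 6.75 (-1.38, SE 0.37, adjusted p = 0.0961). The most abundant of these was circRNA_34466 of SETD3, the actin histidine methyltransferase gene, at 67.1, 78.0 and 81.0 against 40.6, 36.7 and 52.5 (-0.80, adjusted p = 0.142). Close to it in level, circRNA_20222 of CDK13, a kinase gene of transcription elongation, was at 82.3, 73.1 and 69.8 against 42.7, 38.8 and 42.0 (-0.86, adjusted p = 0.138). Those of ERBIN (-1.35), RBM33 (-1.35), EML4 (-1.53), ZZZ3 (-0.99) and MEMO1 (-1.18) had adjusted p from 0.136 to 0.208. In all 9 every 180d library lay below every 35d library, a pattern shared with 9.97% of all circRNAs.

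The most abundant circRNAs of the spleen were not called. Of the 10 with the highest mean over the 6 libraries, 8 had a higher and 2 a lower fitted level at 180d. The log2 fold changes ran from -0.33 for circRNA_21182 to 0.40 for circRNA_01598 of SLTM, with adjusted p of 0.433 or more. That of SLTM was at 393, 444 and 467 at 35d and at 546, 630 and 541 at 180d, without overlap. Likewise circRNA_07325 of PRKAR1A, the regulatory subunit gene of protein kinase A, was at 156, 173 and 190 against 203, 235 and 243 (0.39, SE 0.20, adjusted p = 0.57). The 95% interval of its change, from -0.01 to 0.80 on the log2 scale, ends short of a 2-fold rise. The highest of all, circRNA_24032, was at 826, 677 and 791 against 750, 866 and 934 (0.15, SE 0.70). Its SE carries the spread of the other stages, as its SD was 77.65 at 35d and 92.7 at 180d but 631 at 14d and 442 at 28d. Its junction had 6 copies of its flanking bases within 500 kb, so its reads could also come from ordinary splicing between repeated segments. The same holds for circRNA_21182, which had 1 such copy. PAPD4, which encodes a poly(A) polymerase, has circRNA_21767, the ring followed up in the study. It was at 13.0, 14.2 and 12.6 at 35d and at 25.6, 22.3 and 20.3 at 180d. Although the groups did not overlap, the log2 fold change of 0.76 (SE 0.45, 95% interval -0.13 to 1.66) had an adjusted p of 0.695.

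When counts were summed over the circRNAs of each host gene, 17 of 1675 host genes (1.01%) were called, 4 higher (0.239%) and 13 lower (0.776%) at 180d. Of these, 5 have 1 circRNA in the table (BTBD7, IGF2BP3, ZRANB1, DTL and CTSS) and 12 have 2 or more, so most of the host gene calls pool rings that were not called singly. All 17 had a 120d mean between those of 35d and 180d and their most extreme stage mean at 180d. Of all 1675 host genes 726 had such a 120d mean, and 319 had their highest and 301 their lowest stage mean at 180d. The comparison of 120d with 28d called 1 host gene (0.0597%), with 128 (7.64%) at an unadjusted p under 0.05, and 16 of the 17 had the same sign there, beside 55.6% of all host genes. In bulk tissue, fewer cells of a type and less RNA per cell cannot be told apart in these values.

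**Figure D3:**
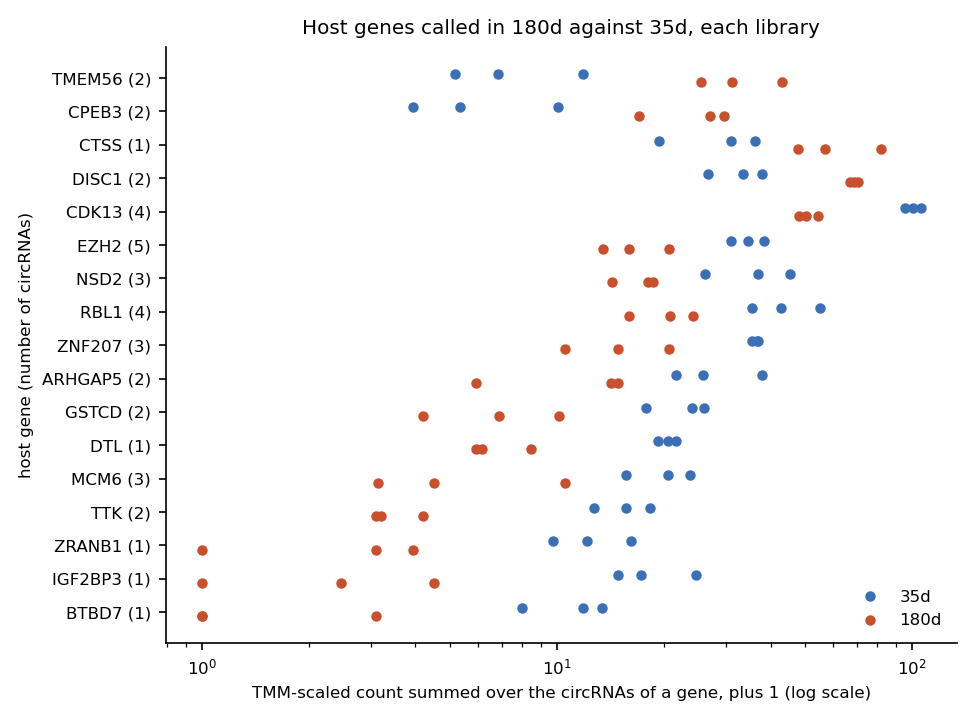
TMM-scaled counts summed over the circRNAs of each of the 17 called host genes, plus 1, on a log axis, with 1 point per library (35d blue, 180d red) and the number of circRNAs of the gene in brackets. No gene has overlapping groups, and in 13 of the 17 rows the red points lie to the left.

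Among the 4 host genes that rose, TMEM56 summed to 10.8, 4.18 and 5.85 at 35d and to 24.5, 42.1 and 30.1 at 180d (log2 fold change 2.28, SE 0.46, adjusted p = 0.00619). Both of its rings, exons 6 to 9 and exons 6 to 10, were higher, by 2.33 and 2.17. CPEB3, a gene for a protein that controls translation through cytoplasmic polyadenylation elements, went from 4.34, 9.07 and 2.93 to 16, 25.96 and 28.7 (2.07, SE 0.54, adjusted p = 0.0337). DISC1, which encodes a centrosomal scaffold, went from 32.5, 37.0 and 25.6 to 69.3, 66.0 and 67.6 (1.09, SE 0.28, adjusted p = 0.0316). CTSS, with its single ring, rose by 1.12 (SE 0.30, adjusted p = 0.0361). In all, 6 host genes (0.358%) were higher at an adjusted p under 0.05, and SMCHD1 over 7 rings (0.78, adjusted p = 0.0191) was among those that missed the 2-fold threshold. The TMEM56 call ended without 35d replicate 2 or 180d replicate 2 (adjusted p up to 0.0599). That of CTSS ended when replicates 1 or 2 of 35d or replicates 2 or 3 of 180d were left out (up to 0.326), that of CPEB3 without any library except 180d replicate 1 (up to 0.239), and that of DISC1 without any of the 6 (0.0573 to 0.209).

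Of the 13 host genes that fell, MCM6 and DTL belong to the DNA replication and S phase list described further on and TTK to the kinetochore and mitosis list. MCM6, a subunit of the replicative helicase, summed to 22.8, 19.5 and 14.6 over 3 rings at 35d and to 2.13, 3.51 and 9.55 at 180d (log2 fold change -1.80, SE 0.43, adjusted p = 0.0183). TTK, the kinase that starts the spindle checkpoint, went from 17.4, 14.7 and 11.7 to 3.20, 2.10 and 2.20 (-2.51, SE 0.58, adjusted p = 0.0168). Its ring of exons 14 to 19 was listed at 0 in all 180d libraries. ZNF207, whose protein brings BUB3 to kinetochores, went from 35.8, 35.6 and 34.4 to 13.9, 19.6 and 9.55 (-1.28, SE 0.30, adjusted p = 0.0183). RBL1 was at 54.2, 41.9 and 34.4 against 14.9, 23.1 and 19.8 (-1.12, SE 0.27, adjusted p = 0.0183), and all 4 of its rings had a negative fold change, from -2.47 to -0.44. DTL fell by 1.75 on the log2 scale (adjusted p = 0.0183), as its single ring had. The calls of TTK and DTL ended without replicate 1 or 2 of 35d or replicate 2 or 3 of 180d, that of MCM6 without replicate 1 or 2 of either stage, that of ZNF207 without replicate 1 or 2 of 35d or replicate 1 or 3 of 180d, and that of RBL1 without any library except 35d replicate 3 (adjusted p up to 0.171).

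A pair of histone methyltransferase genes fell as well. NSD2, which methylates histone H3 at lysine 36, went from 44.5, 25.1 and 35.9 to 17.1, 13.3 and 17.6 over 3 rings (log2 fold change -1.11, SE 0.29, adjusted p = 0.0343). EZH2 went from 33.6, 29.99 and 37.3 to 14.9, 19.6 and 12.5 (-1.09, SE 0.29, adjusted p = 0.0361). Neither was called in any of the 6 fits without 1 library, with adjusted p from 0.0528 to 0.271 for NSD2 and from 0.0603 to 0.193 for EZH2. Among the 5 rings of EZH2, that of exons 2 to 4 was listed at 0 at 180d and that of exons 2 to 3 differed by -0.49 (SE 0.50). That of exons 9 to 10 differed by 0.27 (SE 0.99). A difference between these rings was not shown, as that of exons 2 to 4 had an adjusted p of 0.309 against its sister rings (edgeR's diffSpliceDGE).

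Of the others, CDK13 had the highest level, at 105, 99.7 and 94.4 against 53.3, 47.0 and 49.2 (log2 fold change -1.002, SE 0.23, adjusted p = 0.0168), and its 4 rings all had negative fold changes. GSTCD went from 24.9, 23.0 and 16.8 to 3.20, 9.12 and 5.88 (-1.74, adjusted p = 0.0168). The GTPase activating protein gene ARHGAP5 went from 20.6, 37.0 and 24.9 to 13.9, 4.91 and 13.2 (-1.42, adjusted p = 0.0494), and its call ended without any 1 of the 6 libraries (adjusted p from 0.0732 to 0.35). The CDK13 call ended without replicate 1 or 2 of 35d or replicate 2 or 3 of 180d (up to 0.107), and that of GSTCD without replicate 1 or 2 of 35d or replicate 1 or 3 of 180d (up to 0.0872). IGF2BP3 (-3.21, adjusted p = 0.00167), BTBD7 (-3.48) and ZRANB1 (-2.56, both adjusted p = 0.0168) repeated the calls of their single rings. As host genes BTBD7 was not called without any library except 180d replicate 2, and ZRANB1 without replicate 1 or 2 of either stage (adjusted p up to 0.103). The direction of the 17 host genes held in every fit that left out 1 library. Without 35d replicate 2, however, edgeR called 0 of the 1675 host genes (160 at an unadjusted p under 0.05), and 2 when replicate 1 of 35d was left out. When replicates 1, 2 and 3 of 180d were left out in turn it called 9, 4 and 5, and 12 with replicate 3 of 35d left out. The IGF2BP3 host call ended without 35d replicate 2 alone (adjusted p = 0.0528).

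The 613 host genes with 2 or more rings allow a test of whether 1 ring moved apart from the others of its gene. Of 1786 rings tested with edgeR's diffSpliceDGE 0 passed an adjusted p of 0.05, and 36 had an unadjusted p under 0.05. The smallest p was that of circRNA_23363 of SMG1, the kinase of nonsense-mediated decay, which spans exons 8 to 21 of 64. It was at 9.75, 8.51 and 7.43 at 35d and at 2.13, 0 and 0 at 180d, while the sum over the 6 rings of SMG1 was 98.2 ± 7.07 against 90.8 ± 18.6. Relative to its sister rings it differed by -2.47 on the log2 scale (adjusted p = 0.118). The EZH2 ring of exons 2 to 4 differed from the other EZH2 rings by -3.44, and circRNA_10805 of SEC62, a gene of protein import into the endoplasmic reticulum, by -2.42 (adjusted p = 0.309 each). TLK1, a chromatin kinase gene, had rings on both sides, circRNA_16051 (exons 2 to 3) at 0.90 (adjusted p = 0.674) and circRNA_16029 (exons 2 to 12) at -1.28 (adjusted p = 0.9996). The former was at 27.1, 0 and 24.5 at 35d and at 36.3, 52.5 and 61.5 at 180d, so its difference leans on 35d replicate 2.

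Among gene lists, DNA replication and S phase stood at the negative end. All 16 of its measured host genes had a negative fold change, with a median of -0.90, beside 839 of 1675 and a median of -0.003 over all host genes. Of the 16, 2 (MCM6 and DTL) passed the adjusted p, and in 6 every 180d library lay below every 35d library, which held for 10.6% of all host genes. The reverse, every 180d library above, held for 0 of the 16 and for 8.36% of all host genes. Summed over the list the level was 306, 266 and 286 at 35d and 176, 167 and 198 at 180d, so the groups did not overlap. The 120d libraries lay between them, from 236 to 243. Of the members that did not pass, ATAD2, a bromodomain ATPase gene with 8 rings, was at 134, 77.4 and 100 against 69.3, 65.3 and 63.2 (-0.65, SE 0.21, adjusted p = 0.136). WDHD1, a replisome factor gene, was at 3.25, 4.18 and 7.32 against 0, 0 and 1.47 (adjusted p = 0.242). Near 0 were the origin recognition genes ORC3 (-0.22) and ORC4 (-0.09) and the clamp loader gene RFC1 (-0.17).

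The kinetochore and mitosis list had 38 measured host genes, 28 with a negative and 10 with a positive fold change, and a median of -0.71. Only TTK passed the adjusted p. In 12 of the 38 every 180d library lay below every 35d library, and in 0 above, beside 10.6% and 8.36% of all host genes. The list summed to 566, 494.5 and 506 at 35d and to 312.5, 438 and 335 at 180d. BUB1B, the spindle checkpoint gene, was at 48.8, 26.5 and 33.7 against 4.27, 14.0 and 11.8 (-1.75, SE 0.45, adjusted p = 0.0521). SGO1, which protects centromeric cohesion, was at 7.59, 7.67 and 6.59 against 0, 0 and 1.47 (adjusted p = 0.0924), and the checkpoint kinase gene BUB1 at 7.59, 3.49 and 8.05 against 0, 0 and 2.94 (adjusted p = 0.134). The other measured genes of sister chromatid cohesion in this list, grouped after their values were seen, were PDS5B (-0.69), ESCO1 (-0.23), PDS5A (-0.16), SMC3 (-0.01), WAPL (0.00), STAG2 (0.16), STAG1 (0.34) and NIPBL (0.37), with adjusted p of 0.712 or more.

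**Figure D4:**
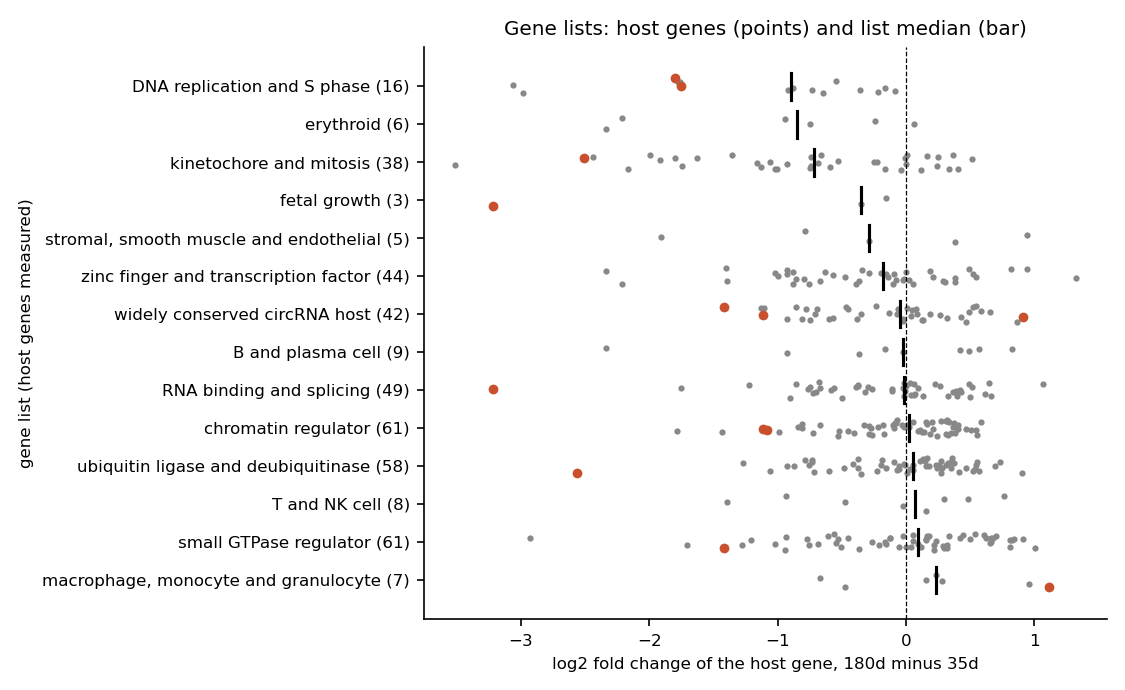
Log2 fold changes (180d minus 35d) of the measured host genes of each list with at least 3 of them, with a bar at the list median. Red points passed an adjusted p of 0.05, the number of measured host genes stands in brackets, and the dashed line marks the median of all host genes (-0.003). DNA replication and S phase lies wholly below 0, and the median of the kinetochore and mitosis list is -0.71.

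Blood cell markers were thinly covered, as only genes with a circRNA in the table can be seen. Host genes were measured for 8 of 73 T and NK cell genes, 9 of 58 B and plasma cell genes, 7 of 71 macrophage, monocyte and granulocyte genes and 6 of 63 erythroid genes. None was measured of 24 germinal centre, 30 megakaryocyte and platelet or 20 pancreas acinar genes, so these could not be followed, and CD3E, MS4A1 and CD163 were not measured here. Surface markers that were measured include CD22 of B cells (-0.16, adjusted p = 0.935) and ADGRE1 of macrophages (0.28, adjusted p = 0.95). The erythroid list had 5 of 6 members with a negative fold change and a median of -0.85, and 0 passed the test. It summed to 101, 78.8 and 79.8 at 35d and to 45.9, 65.2 and 68.4 at 180d. BCL11A, which is also on the B and plasma cell list, was at 4.34, 7.67 and 5.12 against 0, 1.40 and 1.47 (adjusted p = 0.209). SOX6 was at 4.34, 3.49 and 8.05 against 0, 1.40 and 1.47 (adjusted p = 0.515). The groups overlapped for TFRC, at 19.5, 9.76 and 3.66 against 0, 2.10 and 12.5 (-0.94, adjusted p = 0.785), and for EPB41, the membrane skeleton gene (-0.24, adjusted p = 0.819). This list moved with the DNA replication and mitosis lists, and its part in their change was not tested. Over the settings its median ran from -5.00 in the pair of libraries with at least 0.96 valid bases to -0.03 in those under 0.96, and that of the DNA replication list was -1.33 and -0.61 in the same fits.

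In the macrophage, monocyte and granulocyte list 5 of 7 fold changes were positive, with a median of 0.23. CTSS passed as a host gene but not as a circRNA, and CSF2RB (0.96) and NR1H3 (0.23) did not pass. The list summed to 162, 149 and 148.5 at 35d and to 220, 196 and 201 at 180d. These sums include CTSS itself, at 18.4, 29.99 and 35.1 at 35d and at 46.9, 80.7 and 55.9 at 180d. They therefore do not show a rise of the other members. The part of this list in the change of CTSS was not tested. T and NK cell genes were split at 4 to 4 with a median of 0.07. CD96, an adhesion receptor of these cells, was at 17.4, 38.4 and 17.6 against 34.1, 47.0 and 44.8 (0.76, adjusted p = 0.432), and SATB1 at 7.59, 8.37 and 11.0 against 0, 4.91 and 4.41 (-1.40, adjusted p = 0.438). B and plasma cell genes were split at 5 negative to 4 positive with a median of -0.03. Among them were BCL11A at -2.34 (adjusted p = 0.209), AFF3 at -0.92 (adjusted p = 0.277) and RUBCNL at 0.42 (adjusted p = 0.627). The stromal, smooth muscle and endothelial list (5 genes, median -0.29) had no call.

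The broader lists were centred near 0. Their medians were 0.02 for 61 chromatin regulators, -0.01 for 49 RNA binding and splicing genes, 0.05 for 58 ubiquitin ligases and deubiquitinases, 0.10 for 61 small GTPase regulators and -0.04 for 42 widely conserved circRNA hosts. Each held 1 to 3 genes past the adjusted p, which 0.358% of all host genes passed as higher and 0.776% as lower. The zinc finger and transcription factor list had 29 of 44 genes negative, beside 839 of all 1675 host genes, a median of -0.18 and 0 past the threshold. It summed to 1327 to 1361 at 35d and to 1029 to 1171.5 at 180d. Its smallest p values belonged to ZZZ3 (-0.998, adjusted p = 0.111) and GLIS3 (-1.02, adjusted p = 0.128). Of 3 fetal growth genes IGF2BP3 passed, and PBX3 (-0.35) and IGF1R (-0.16) did not. In the widely conserved host list NSD2 and ARHGAP5 were past the threshold, both lower. TLK2 in the chromatin list was at 72.7, 76.0 and 90.7 against 123, 96.8 and 134 (0.55, adjusted p = 0.209). DOCK10 among the GTPase regulators was at 17.4, 16.7 and 13.2 against 35.2, 26.7 and 33.1 (1.002, adjusted p = 0.235).

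The length of the ring moved with the comparison. Exonic circRNAs with 1 transcript that joins both ends were split into 4 length classes of nearly equal number. In the shortest (70 to 322 nt) the median log2 fold change was 0.24, and it was 0.03, -0.03 and -0.36 in the next ones up to the longest (657 to 4050 nt). At an unadjusted p under 0.05, 6.42% of the shortest were higher and 2.09% lower, against 0.985% higher and 12.1% lower among the longest. The longest rings took 22.5%, 20.6% and 20.6% of the reads of exonic circRNAs at 35d and 18.4%, 15.5% and 16.6% at 180d, without overlap. The shortest took 26.5%, 28.4% and 30.1% at 35d and 30.2%, 34.4% and 33.6% at 180d. In 120d against 28d the medians were 0.26, 0.06, 0.02 and -0.08 in the same order. Among the 107 and 162 circRNAs counted above at an unadjusted p under 0.05, those higher at 180d had a median length of 330.5 nt and those lower 707 nt, beside 431 nt over all.

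**Figure D5:**
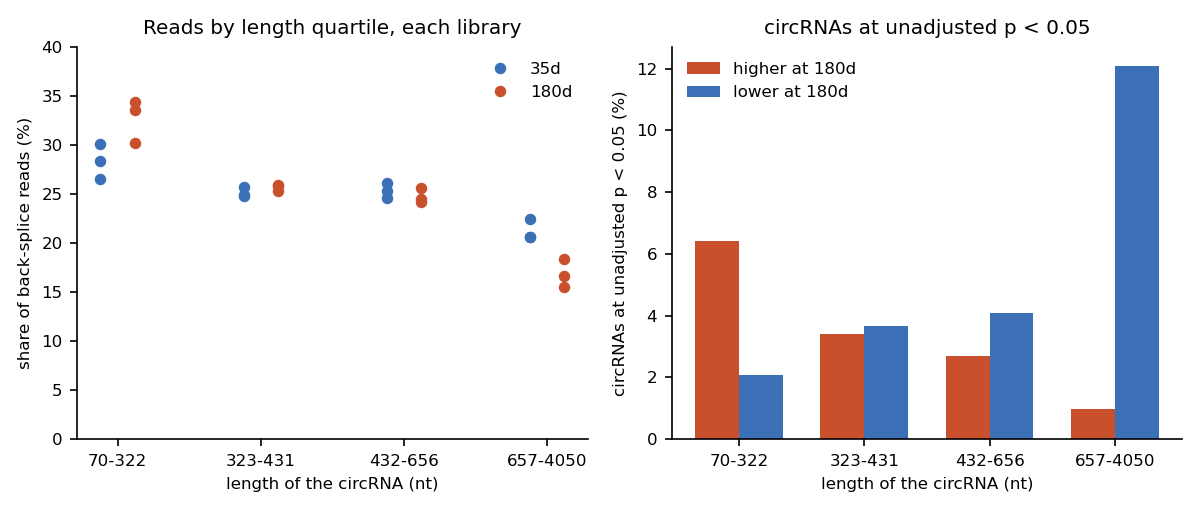
Left, share of the reads of exonic circRNAs (%) in each class of circRNA length (nt) for the 3 libraries of 35d (blue) and of 180d (red). Right, share of circRNAs (%) at an unadjusted p under 0.05 that were higher (red) or lower (blue) at 180d in the same classes, where 12.1% of the longest were lower and 0.985% higher.

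With normalization within each length class, an alternative added after the data were seen, 8 circRNAs were again called, 3 higher and 5 lower, of which 6 were shared. BTBD7 circRNA_34381 (adjusted p = 0.0572) and ZRANB1 circRNA_14994 (0.0738) were not among them, and RBL1 circRNA_18987 and TMEM56 circRNA_27373 were (adjusted p = 0.0489 each). Of the 17 host genes 7 remained called, 1 higher and 6 lower, and CPEB3, CTSS, DISC1, MCM6, ZNF207, NSD2, EZH2, CDK13, GSTCD and ARHGAP5 were not. All 16 DNA replication genes kept a negative fold change with a median of -1.01 under that setting, and the mitosis list had 28 of 38 negative with a median of -0.59. The part of ring length in the other calls was not tested further.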

How the data were processed

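The authors prepared 1 ribosomal RNA-depleted spleen library per pig and deposited the counts of reads across back-splice junctions, whole numbers with no normalization, for 3000 circRNAs. The labels name FastQC, cutadapt and TopHat2, and the study's methods name BWA on Sscrofa11.1 and CIRI2 with GT-AG signals. The labels and the methods describe different extraction and library kits, and RNase R digestion is named only by the methods, so which protocol gave these counts was not settled. The rule by which the 3000 circRNAs were chosen is not given in the sources used here. The smallest count above 0 was 2, so junctions seen once were listed as 0.

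Counts were tested with edgeR 4.0.16 in R 4.3.3 (TMM, estimateDisp, robust glmQLFit, glmQLFTest, two-sided) in 1 fit over 24 libraries with 1 coefficient per stage, no filter and no covariate, and the contrast was 180d minus 35d. Benjamini-Hochberg adjustment ran over the 3000 circRNAs or the 1675 host genes, and a call needed an adjusted p under 0.05 and a log2 fold change of at least 1. Fitted log2 values used a prior count, so those of rings near 0 are no bounds. TMM-scaled counts express each count per 38416 effective reads, the geometric mean over the libraries of the circRNA table, computed separately for circRNAs and host genes. Host genes and exons came from RefSeq annotation of Sscrofa11.1, with both ends matched to exon ends within 1 base, and exon numbers are those of the matched transcript. Clean reads and valid bases per library were taken from the supplement of the study, as a depth and a covariate only. Floors cover counting error only, and reads without molecular identifiers are not independent molecules. Each SE is the absolute log2 fold change divided by the square root of the F statistic of the test, which holds the fitted spread between libraries. The intervals of fold changes are built from that SE. For rings with zeros both therefore depend on the prior count. Within a stage the libraries differed by more than sampling noise (chi-square per degree of freedom 1.9 to 2.3), and none was merged.

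Named circRNAs were the called ones whose groups did not overlap and whose mean TMM-scaled count was 10 or more, filled to 10 per direction by the smallest p, the 10 most abundant, the called host genes with at least 2 circRNAs (up to 5 per direction), the 5 smallest p within host genes, the 4 smallest p of each of 18 gene lists, and circRNA_21767. A result that the naming rule covers is not reported here. The members and lists were chosen with earlier results of these data known. The host gene sums of RBL1, CDK13 and BTBD7 lie outside the naming rule and are given because those host genes were called. The test was checked on simulated counts, where it called 1 of 2800 unchanged circRNAs and 0 in counts with no change. Alternatives were DESeq2 1.42.0, other depths, filterByExpr, the 6 libraries alone, the replicate number as a block, valid bases and GC content as covariates, subsets by valid bases, and each library left out.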

Additional observations from a re-analysis of the deposited data

How the results depend on the processing

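Calls were few, most were lost in several of the 6 fits that left out 1 library, and the numbers of calls moved with most settings. Against 2 circRNAs higher and 6 lower, DESeq2 size factors gave 5 higher, clean reads as depth 1 higher and 3 lower, the DESeq2 Wald test 6 higher, the 6 libraries alone 4 higher and 1 lower, valid bases as covariate 6 higher, and library GC content as covariate 3 lower. Libraries under 0.96 valid bases gave 0 in each direction (285 at an unadjusted p under 0.05 with edgeR), as did those of at least 0.96 (169). Leaving out 1 library gave 1 to 3 higher and 1 to 5 lower. Against 4 host genes higher and 13 lower, clean reads gave 1 and 1, GC content 1 higher, the 6 libraries alone 8 lower, libraries under 0.96 valid bases 1 and 1, those of at least 0.96 0 and 0 (108 at an unadjusted p under 0.05), normalization within length classes 1 and 6, and leaving out 1 library 0 to 3 higher and 0 to 9 lower. The cause was not tested, except that the subsets hold fewer libraries. Rings apart from the others of their host were 0, but 1 in the libraries under 0.96 valid bases and 0 to 1 without 1 library. Calls of the comparison 120d vs 28d, circRNAs, were 0, but 3 with table totals, 439 with clean reads, 5 with DESeq2, 1 with valid bases and 3 with GC content as covariate. Reads of the table per M clean reads were 762, 634 and 864 at 120d and 420, 405 and 265 at 28d. Scaling to clean reads keeps that difference in every fold change, and its part in the 439 was not tested. With the replicate number as a block 8 circRNAs (2 higher, 6 lower) and 16 host genes (4 and 12) were called. Same-numbered libraries of the 2 stages deviated from their stage means with correlations of 0.046, 0.018 and 0.003. Libraries of different numbers had correlations from -0.05 to 0.039. Read totals and valid bases did follow the replicate number in both stages, as given above. Whether the number stands for anything else the libraries share was not tested, so a call lost under the block is given without a reading.

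Of the called circRNAs, circRNA_13457 and circRNA_37799 of IGF2BP3 lost their call in the subsets by valid bases alone, of all 18 settings. A setting that gave a circRNA no adjusted p, as DESeq2 can, was not counted as a loss. None of the 8 called circRNAs or 17 called host genes changed direction in any setting. Signs that turned belonged to uncalled values. These were circRNA_24032 (-0.19 in libraries of at least 0.96 valid bases), circRNA_36806 of PICALM (-0.021 with table totals, -0.006 with valid bases as covariate, -0.12 in libraries of at least 0.96, -0.052 to 0.075 without 1 library, below 0 without replicate 3 of either stage), host TFRC (0.10 under 0.96), host COL12A1 (0.29 at least 0.96), host PBX3 (0.81 at least 0.96, -0.74 to 0.01 without 1 library, above 0 without 35d replicate 2), host IGF1R (0.15 at least 0.96, -0.305 to 0.073 without 1 library, above 0 without 180d replicate 2) and host ACACB (4.58 at least 0.96, -1.51 to 0.89 without 1 library, above 0 without 35d replicate 2). The median fold change of the DNA replication list ran from -1.33 to -0.61 over the settings and that of the kinetochore and mitosis list from -1.35 to -0.57, all below 0. Those of the erythroid and zinc finger lists also stayed below 0, those of the macrophage and small GTPase lists above, and those of the other lists with at least 3 measured genes crossed it. Depth limits the falls, as a ring under 10 reads per library at 35d can be listed at 0 at 180d, and the size of its fall is then not known.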

Other observations

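At 35d circRNA_30386, which matched no host gene, had an SD above its mean. Its mean was 59.3 ± 72.2 (SD, n = 3) at 35d and 7.10 ± 4.26 at 180d, the groups overlapped, and the log2 fold change of -2.94 had an SE of 2.17 and an adjusted p of 0.82. It was chosen after its values were seen. CircRNAs at an unadjusted p under 0.05 that were lower at 180d opened at exon 2 of their transcript in 60 of 156 exonic cases (38.5%), against 30 (31.2%) of those higher and 806 (28.3%) of all exonic circRNAs. No test was made of these shares, since rings of 1 gene share exons.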
